A study of Homo sapiens with 6 samples.

Results

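Long terminal repeat (LTR) families were compared between the atypical teratoid rhabdoid tumor (AT/RT) cell lines CHLA 06 and CHLA 05. A family here is a RepeatMasker name, such as THE1C for an LTR or THE1C-int for the internal part between a pair of LTRs, and every family with 200 or more annotated elements was taken. This gave 420 of 572 families, with 703464 of 720177 elements. The families held 95.8% of the LTR reads of CHLA 05, and 95.7% and 95.8% of those of the CHLA 06 libraries. Of the 420 families, 419 had 20 or more reads in at least 1 of the 3 libraries and were compared, and 1 had fewer and was not.

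LTR retrotransposons are remnants of retroviral infections and of related mobile elements in the germ line. An intact provirus has a 5′ LTR, an internal part with the gag, pol and env genes, and a 3′ LTR of the same sequence at the time of insertion. The 5′ LTR carries promoter signals and the 3′ LTR a polyadenylation signal. Most copies have recombined to a solitary LTR, and many LTRs lie in introns and untranslated exons, where reads can come from the transcript of the host gene as well as from the element. ERV1 families include HERV-H, HERV-E, HERV9 and MER41, ERVK families include the HML-2 group of HERV-K, and the ERVL-MaLR families THE1, MST and MLT1 are older and more numerous.

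AT/RT is a brain tumor of young children, most often diagnosed by loss of SMARCB1, a subunit of the SWI/SNF chromatin remodelling complex. All cell lines of the series were described as lacking SMARCB1, CHLA 05 as a group 1 (ATRT-SHH) line and CHLA 06 as a group 2 (ATRT-MYC or ATRT-TYR) line. CHLA 05 was an untreated line with 1 library, and CHLA 06 an untreated line with 2 technical replicates, named r1 and r2 here. Each line was thus 1 biological sample, so no test between the lines was possible and the spread between cultures was not measured. The SD of CHLA 06 is the spread of technical replicates (n = 2), and intervals cover the counting of reads only. CHLA 05 had 413966 LTR reads, and the CHLA 06 libraries had 448565 and 481344. These were 2.53 LTR reads for each 100 reads on transcripts in CHLA 05, and 2.39 and 2.35 in CHLA 06.

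Gene levels in TPM, a level per transcript length and library total, separated the lines. SMARCB1 was listed at 16.3 TPM in CHLA 05 and at 17.3 and 16.2 TPM in CHLA 06, so total gene TPM did not show the loss described for these lines. MYC was at 1.44 TPM in CHLA 05, and at 94.1 and 72.1 TPM in CHLA 06. TYR, a pigment cell enzyme, was listed at 0 in all 3 libraries. COL1A1, a collagen of connective tissue cells, was at 11.5 TPM in CHLA 05, and at 600 and 459 TPM in CHLA 06. The blood cell marker PTPRC and the endothelial marker PECAM1 were at 0 in CHLA 05 and at 0 to 0.0506 TPM in CHLA 06. In RNA from whole cultures, fewer cells of a type and less RNA per cell cannot be told apart.

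A family was counted as higher or lower in CHLA 06 when its share of all LTR reads differed from CHLA 05 by 1.5-fold or more in both CHLA 06 libraries. By this measure 42 of 419 families (10%) were higher and 36 (8.59%) were lower. At 2-fold the counts were 17 and 14. For all 78 families the counting intervals of both ratios excluded 1, as they did for 224 of the 419 families at any size of difference. The interval of the ratio between the 2 CHLA 06 technical replicates also excluded 1 for 111 of the 419 families. Exclusion of 1 alone therefore does not mark a difference between the lines. The technical replicates of CHLA 06 were 1.5-fold or more apart for 7 families (1.67%), whereas those of CHLA 04, another AT/RT line, were so for 81 (19.3%), with 355302 and 511408 LTR reads. The median fold between the lines was 1.246 (95th percentile 2.59), against 1.08 (95th percentile 1.38) between the CHLA 06 replicates and 1.204 (95th percentile 1.84) between the CHLA 04 replicates. The folds between the lines were thus larger than those between the CHLA 06 replicates, while their median was close to that of the CHLA 04 pair. Both pairs show technical spread alone, and the spread between cultures of 1 line was not measured. Just inside the limit were MER66A, with ratios of 1.51 and 1.67, and LTR68, with 0.662 and 0.661. Just outside were MER51-int, with 1.498 and 1.57, and MER65B, with 0.671 and 0.625.

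**Figure D1:**
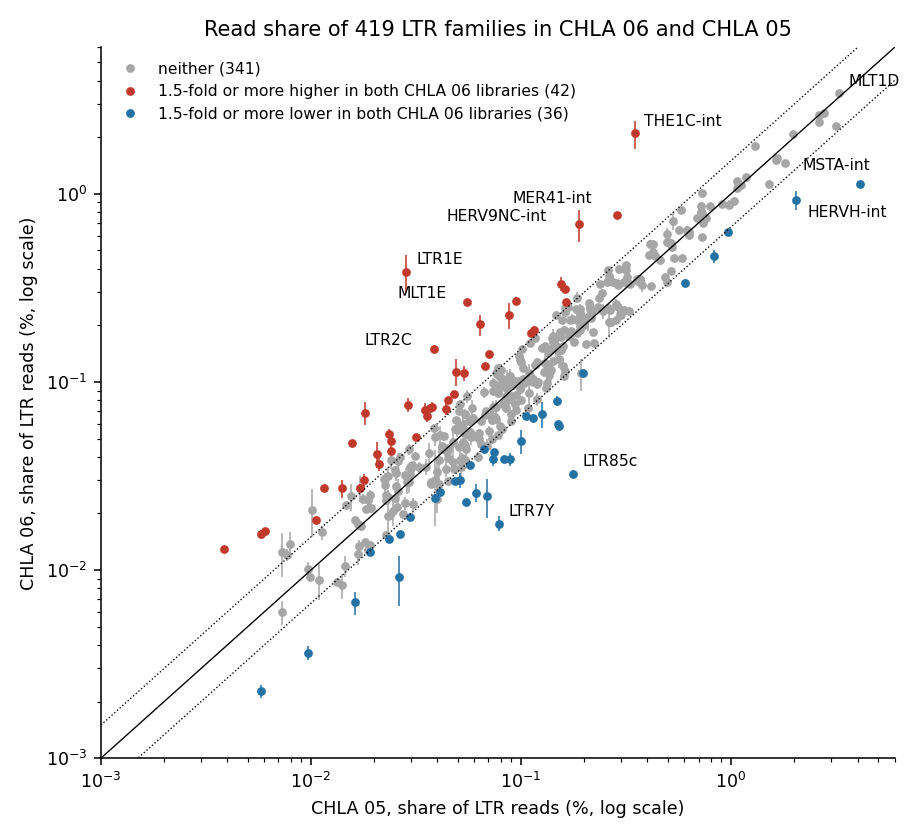
Share of LTR reads (%, log scales) of 419 families in CHLA 05 and CHLA 06. Points give the mean and vertical lines the range of the 2 CHLA 06 libraries, and dotted lines mark 1.5-fold. Most families lie near the line of equal share, with 42 above and 36 below the limits.

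The families with the highest CHLA 06 levels relative to CHLA 05 were small or middle-sized. LTR1E had 118 reads in CHLA 05 and 2121 and 1423 in CHLA 06, or 0.0285% against 0.384% ± 0.125 (SD, n = 2) of LTR reads. Its ratios were 16.6 (interval 13.8 to 20.1) and 10.4 (8.59 to 12.6). THE1C-int had 1438 reads in CHLA 05 and 10957 and 8376 in CHLA 06, which was 0.347% against 2.09% ± 0.497. This was the largest positive difference in share among the families compared. MLT1E followed with 230 against 1196 and 1287 reads, LTR2C with 160 against 637 and 757, and LTR19B with 75 against 351 and 285. HERV9NC-int, the internal part of a HERV9 provirus, had 781 against 2501 and 3930 reads, a ratio of 3.64. The other 6 of the 12 highest families had mean ratios between 2.59 (MER83) and 3.16 (ERVL-int). In all 12 the CHLA 05 share was below the shares of both CHLA 06 libraries.

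Lower families included the largest LTR family of CHLA 05. MSTA-int, the internal part of MST elements, had 17094 reads in CHLA 05 and 5156 and 5318 in CHLA 06, or 4.13% against 1.13% ± 0.0315 of LTR reads. Its ratios were 0.278 (0.270 to 0.287) and 0.268 (0.259 to 0.276), close to each other. HERVH-int had 8400 reads in CHLA 05 and 3692 and 4971 in CHLA 06, or 2.03% against 0.928% ± 0.148. LTR85c was at the lowest ratio, 0.184, with 731 against 138 and 164 reads. LTR7Y, an LTR of HERV-H, was at 0.226 with 324 against 72 and 93 reads. The ratios of the other 8 of the 12 lowest families ran from 0.348 (LTR1D) to 0.467 (HERVK14-int). LTR1D and LTR1E, which share the name LTR1, thus lay at opposite ends of the list.

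Single elements accounted for much of these differences. In 31 of the 42 higher families and 24 of the 36 lower families, 1 element made up over 50% of the difference in share. Without the element of largest difference in each family, 11 of the 42 and 7 of the 36 stayed past the limit, and 14 families were higher and 11 lower in all. Removing an element that differs in the direction of its family shrinks or turns the difference in share by construction. Where the element differs in the other direction, the difference grows. The values are therefore given as a description of how many elements carried a family. LTR1E went from a ratio of 13.5 to 1.22 without an element in an exon of IGFL3 (untranslated in GENCODE v44), a gene of the insulin growth factor-like family. THE1C-int went from 6.02 to 1.29 without the RAD51B element. MLT1E went from 4.81 to 1.42 without an element in an exon of VEPH1. HERV9NC-int went from 3.64 to 0.875, so its remaining elements were slightly lower in CHLA 06. HUERS-P2-int went from 0.358 to 1.81 without an element in MIR181A1HG, the host gene of a microRNA.

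**Figure D2:**
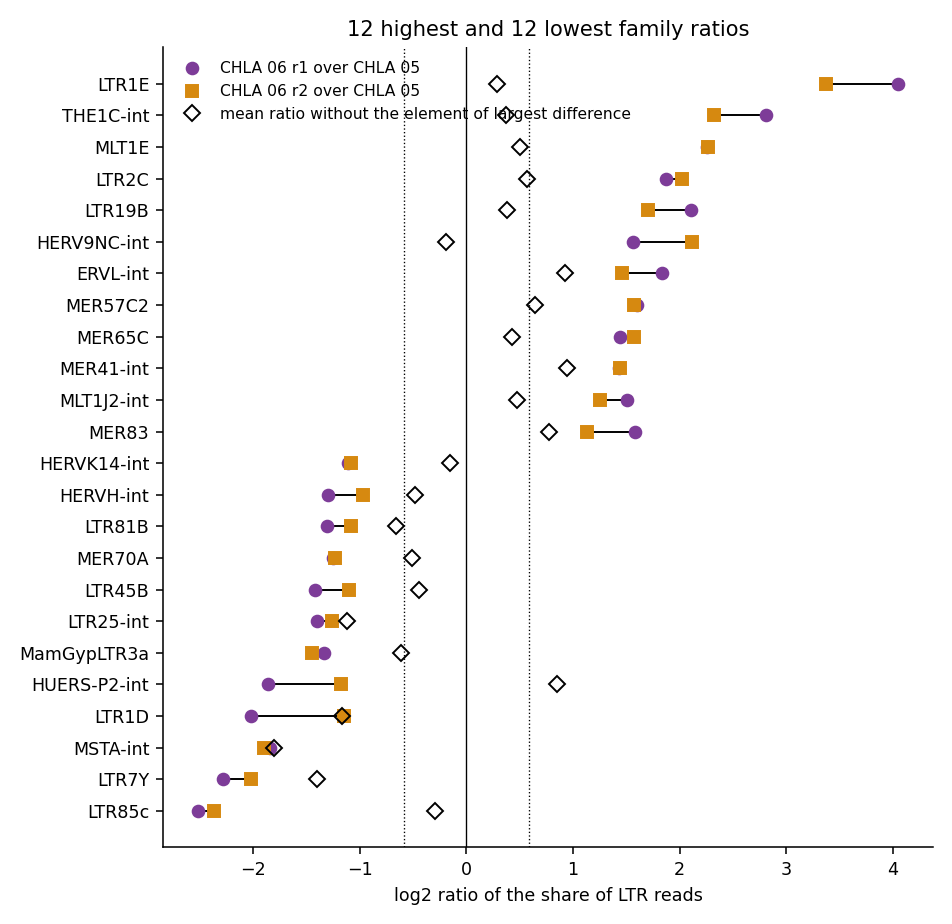
Ratio of the share of LTR reads (log2) for the 12 families with the highest and the 12 with the lowest ratio. Circles and squares are the 2 CHLA 06 libraries over CHLA 05, diamonds are the mean ratio without the element of largest difference, and dotted lines mark 1.5-fold. MSTA-int and LTR25-int keep nearly the same ratio, and HERV9NC-int and HUERS-P2-int pass the line of equal share.

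The families with the highest shares differed little, apart from MSTA-int. MLT1D, an old ERVL-MaLR family, took 3.25% of LTR reads in CHLA 05 and 3.42% ± 0.0486 in CHLA 06, a ratio of 1.05, and MLT1B was also at 1.05. MLT1A0 was at 0.995, THE1B at 0.973, MER21C at 0.942 and MLT1C at 0.919. THE1B-int was at 0.805, MSTA at 0.726 and THE1C at 1.38, of which THE1C was at 1.17 without its elements in RAD51B. The 42 higher families together took 2.72% of LTR reads in CHLA 05, and 8.35% and 7.62% in CHLA 06. The 36 lower families took 10.9% in CHLA 05, and 4.49% and 4.70% in CHLA 06.

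Several families shared a locus and were not independent. LTR1E and MER83 both owed their largest difference to IGFL3 on chromosome 19. The MER83 element at chr19:46121618-46121909 had 1 read in CHLA 05 and 443 and 275 in CHLA 06. LTR85c and LTR81B both had theirs in LINC01314 on chromosome 15, a gene at 182 TPM in CHLA 05, and at 0.150 and 0.0849 TPM in CHLA 06. HERVH-int and LTR7Y shared a provirus on chromosome 13.

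Families whose difference spread over several elements stood out less in size. MER41-int, from the ERV1 family MER41, had 1186 reads in CHLA 05 and 3461 and 3739 in CHLA 06, a ratio of 2.70, and stayed at 1.93 without its top element. Of its 31 elements with 20 or more reads, 16 were 2-fold or more higher in both CHLA 06 libraries and 7 were lower. Over all 7685 elements with 20 or more reads, 31.5% were higher and 24.1% lower, so the count of lower ones was close to the overall share, which also stands beside the counts of the next families. The higher ones included 5528 bases in C1QTNF6 on chromosome 22, with 139 against 1216 and 1450 reads, and 1 in an exon of SLC38A1, an amino acid transporter gene, with 31 against 376 and 350 reads. The lower ones included 3 pieces in SHC3, an adaptor protein gene of neurons, of which the one with most reads had 95 against 0 and 0. ERVL-int stayed at 1.89 without its top element in PDE4D, and 8 of its 10 elements were higher and 0 lower. LTR25-int stayed at 0.458, and of its 7 elements 6 were lower and 0 higher. HERVIP10F-int stayed at 0.560, with 4 of 10 elements lower and 0 higher. Elements of a family can be neighbouring pieces of 1 locus, so these counts are not of independent loci. Such pieces were seen for MER41-int in SLC38A1 and C1QTNF6, for ERVL-int in RP11-518L10.5 and for LTR25-int on chromosome 15. A ratio without the top element can still hold other pieces of the same locus. Some related names lay on 1 side of the limit, and these were chosen after their values were seen. Of 10 MER57 families 6 were higher and 0 lower (4 higher without their top elements), and of 5 MER66 families 3 were higher and 0 lower (1 without), against 10% higher and 8.59% lower over all 419 families.

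The 16 groups of related families, into which names were sorted by virus group, differed less than the families. HERV-H took 2.43% of LTR reads in CHLA 05 and 1.32% ± 0.157 in CHLA 06, a ratio of 0.545. MST families took 11.5% against 7.38% ± 0.0849, a ratio of 0.642. MER41 families took 0.939% against 1.61% ± 0.0247, a ratio of 1.72, and HERV-E families 1.15% against 2.01% ± 0.103, a ratio of 1.75. These 4 groups were 1.5-fold or more apart in both CHLA 06 libraries. Without the top element of each group 1 remained, MST at 0.654, while HERV-H came to 0.781, HERV-E to 1.13 and MER41 to 1.46. Removing 1 element leaves the many other MSTA-int copies in the MST group. In 6 regions described below, MSTA-int copies took 2.63% of LTR reads in CHLA 05 and 0.272% ± 0.0190 in CHLA 06. The MST ratio without those regions was not computed. MLT1, the group with most reads, took 24.7% in CHLA 05 and 24.7% ± 0.0769 in CHLA 06. HERV9 was at 1.39, HERV-L at 1.17, THE1 at 1.16 and HERV-W at 0.872. When shares of TPM were used in place of shares of reads, so that short elements weighed as much as long ones, 0 groups were 1.5-fold apart.

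**Figure D3:**
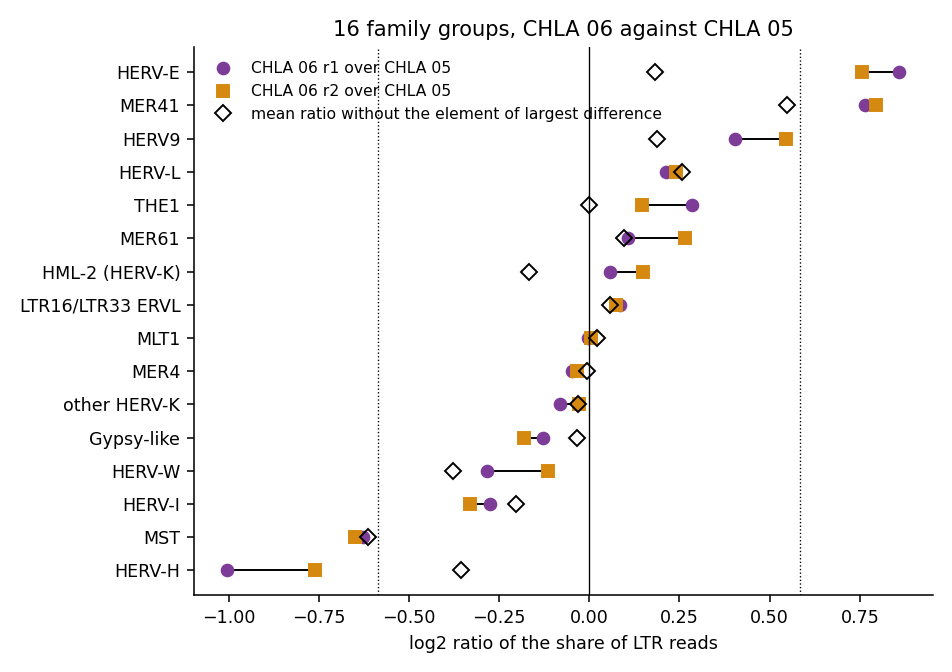
Ratio of the share of LTR reads (log2) for 16 groups of families. Circles and squares are the 2 CHLA 06 libraries over CHLA 05, diamonds the mean ratio without the top element, and dotted lines 1.5-fold. HERV-E and MER41 lie above the upper limit and HERV-H and MST below the lower one.

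HML-2, the youngest HERV-K group, hardly differed as a sum, and single loci differed in both directions. Its share was 1.56% in CHLA 05 and 1.67% ± 0.0749 in CHLA 06, a ratio of 1.07. HERVK-int was at 1.35, LTR5B at 1.21, LTR5A at 1.02 and LTR5_Hs at 0.783. Of 115 HML-2 elements with 20 or more reads, 26 were 2-fold or more higher and 25 lower in both CHLA 06 libraries. Over all elements the shares were 31.5% and 24.1%, so HML-2 elements were past the limit no more often than others. The 7279-base internal part in PCAT14, a long noncoding RNA, at chr22:23538730-23546008 had 4 reads in CHLA 05 and 1138 and 1529 in CHLA 06. The internal part at chr22:18939642-18945174, in an exon of AC007326.1, had 849 reads in CHLA 05 and 5 and 7 in CHLA 06. Each of these was thus at 7 reads or fewer in the line where it was low. Another, at chr1:155629344-155634877 in an intron of RP11-29H23.5, had 40 reads in CHLA 05 and 413 and 809 in CHLA 06. The element at chr3:101692862-101698340 had 217 against 465 and 486 reads and stayed within 2-fold in both CHLA 06 libraries, at 1.98 and 1.93. Without the PCAT14 element the HERVK-int ratio was 0.816.

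HERV-H reads were concentrated in a few loci. Of 67 HERVH-int elements with 20 or more reads, 28 were lower and 19 higher in both CHLA 06 libraries, against 24.1% lower and 31.5% higher over all elements. The count of higher ones was thus close to the overall share. The HERVH-int element at chr13:109265522-109269052 had 3044 reads in CHLA 05 and 0 in both CHLA 06 libraries. With 3 counts as the floor of each CHLA 06 library its ratios were 0.00091 and 0.000848, and the upper limits of the counting intervals were 0.00112 and 0.00104. This element had 0 reads in the libraries of CHLA 02 and CHLA 04 as well. No gene of the deposited transcripts or of GENCODE v44 covered it. It was part of a region of 22 lower LTR elements within 20 kb of each other (chr13:109208144-109277198), with 5150 reads in CHLA 05 and 0 and 0 in CHLA 06. Without this region HERVH-int was at a ratio of 0.833. A second CHLA 05 provirus at chr19:5549017-5551892 had 659 against 0 and 1 reads, also outside genes. In the other direction, the HERVH-int element at chr10:89285119-89288116 had 113 reads in CHLA 05 and 1030 and 1497 in CHLA 06. It lies in an intron of LIPA, the lysosomal acid lipase gene, on the opposite strand, and in an exon of RP11-149I23.3, while GENCODE v44 also places an untranslated exon of IFIT2, an interferon-induced gene, over part of it. LIPA was at 101 TPM in CHLA 05 and at 852 and 1207 TPM in CHLA 06.

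The MSTA-int difference was spread over many copies. Without its top element the ratio was 0.285. On chromosome 9, 257 elements had 11362 reads in CHLA 05 and 1978 and 2146 in CHLA 06 (ratio 0.162), and on the other chromosomes 2831 elements had 5732 against 3178 and 3172 reads (0.494). In 6 regions, 5 on chromosome 9 and 1 on chromosome 22, there were 5 or more MSTA-int copies each. They came from the lower loci of largest difference, not from a search of all 1030 lower loci, and were taken after the values were seen. Their 85 MSTA-int elements had 10880 reads in CHLA 05 and 1279 and 1243 in CHLA 06. Outside them MSTA-int was at 0.570, and other lower loci with MSTA-int copies remain there. The MSTA LTRs of these regions were lower too, with 3285 against 437 and 439 reads, whereas MSTA outside them was at 0.930. All LTR elements of the 6 regions together took 4.06% of reads in CHLA 05 and 0.433% ± 0.0277 in CHLA 06, and the rest of chromosome 9 was at a ratio of 0.940.

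Several copies in these regions are near-identical, so that reads could be assigned to the wrong copy. Among 20 MSTA-int elements of 1000 bases or more with 20 or more reads, 13 had another copy at 95% identity or more. The other 7 had none, among them those of the first chromosome 9 region and of chromosome 22. The median best identity was 99.5%. A median of 61.0% (0 to 96.8%) of all 125-base windows, the length of a read, occurred unchanged in another of the 20. Values of single copies are therefore uncertain, while a sum over the regions does not depend on how reads were split among these 20. Part of a pair of copies with high CHLA 05 reads is given to show this, at chr9:64449700-64449939 (plus strand, 922 reads on the element in CHLA 05 and 74 and 47 in CHLA 06) and chr9:66072602-66072841 (minus strand, 486 against 9 and 9 reads). The elements were 99.5% identical, and the capital marks the base that differs. Both were read from the GRCh38 genome on the strand of the element, 5′ to 3′.
MSTA-int copy 1: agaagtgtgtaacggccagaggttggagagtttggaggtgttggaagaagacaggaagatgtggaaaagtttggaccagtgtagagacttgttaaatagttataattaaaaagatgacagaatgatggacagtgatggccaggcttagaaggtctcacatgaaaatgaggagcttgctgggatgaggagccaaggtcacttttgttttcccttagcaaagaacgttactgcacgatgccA
MSTA-int copy 2: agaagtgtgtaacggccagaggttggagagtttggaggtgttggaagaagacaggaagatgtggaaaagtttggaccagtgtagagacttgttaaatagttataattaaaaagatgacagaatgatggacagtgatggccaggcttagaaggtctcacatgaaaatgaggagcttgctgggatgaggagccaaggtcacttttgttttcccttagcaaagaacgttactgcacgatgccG

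Complete proviruses were read along their length, because the reads fell unequally on their LTRs. The 5′ and 3′ LTR were 98.4% identical in the HERVH-int provirus on chromosome 13, 97.3% in that on chromosome 19, 91.4% in the HERVE_a-int provirus and 81.1% in the THE1C-int provirus. How reads that match both LTRs of a pair were assigned was not tested. In the HERVH-int provirus on chromosome 13, CHLA 05 had 0 reads on the 5′ LTR, 3786 on the internal part and 131 on the 3′ LTR, or 0, 733 and 303 reads per kb. The chromosome 19 provirus had 0, 749 and 53 reads on the same parts. The HML-2 provirus in AC007326.1 had 4 reads on its 5′ LTR, 1092 on the internal part and 81 on its 3′ LTR in CHLA 05, between LTRs that were 99.2% identical. The HERVE_a-int provirus on chromosome 3 had 3 and 3 reads on the 5′ LTR in the CHLA 06 libraries, 3567 and 3004 on the internal part, and 355 and 260 on the 3′ LTR. The THE1C-int provirus in RAD51B had 152 and 115 reads on the 5′ LTR, 8754 and 6421 on the internal part, and 1260 and 1013 on the 3′ LTR. These 5 proviruses were grouped after their reads were seen. In them the 3′ LTR had more reads than the 5′ LTR in each library of the line where the provirus was high. The same held in both CHLA 06 libraries for MER41-int in C1QTNF6, HERV3-int on chromosome 7 and HERVH-int on chromosome 10. It was not so everywhere. The HERVK22-int provirus in ZNF638 had 88 reads on the 5′ LTR and 45 on the 3′ LTR in CHLA 05. In CHLA 06 it had 65 and 59 in r1, and 68 and 74 in r2. MER41-int in C1QTNF6 had 25 and 7 in CHLA 05. In the THE1B-int provirus in KIAA1161, CHLA 05 had 190 reads on the 5′ LTR and 142 on the 3′ LTR. The HERV9NC-int provirus at chromosome 13 was read evenly, with 304, 279 and 277 reads per kb on the 5′ LTR, internal part and 3′ LTR in CHLA 06 r1, and 508, 521 and 551 in r2. Its flanking LTRs were 794 and 1478 bases long and 51.2% identical end to end, so they were not shown to be a matched pair.

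**Figure D4:**
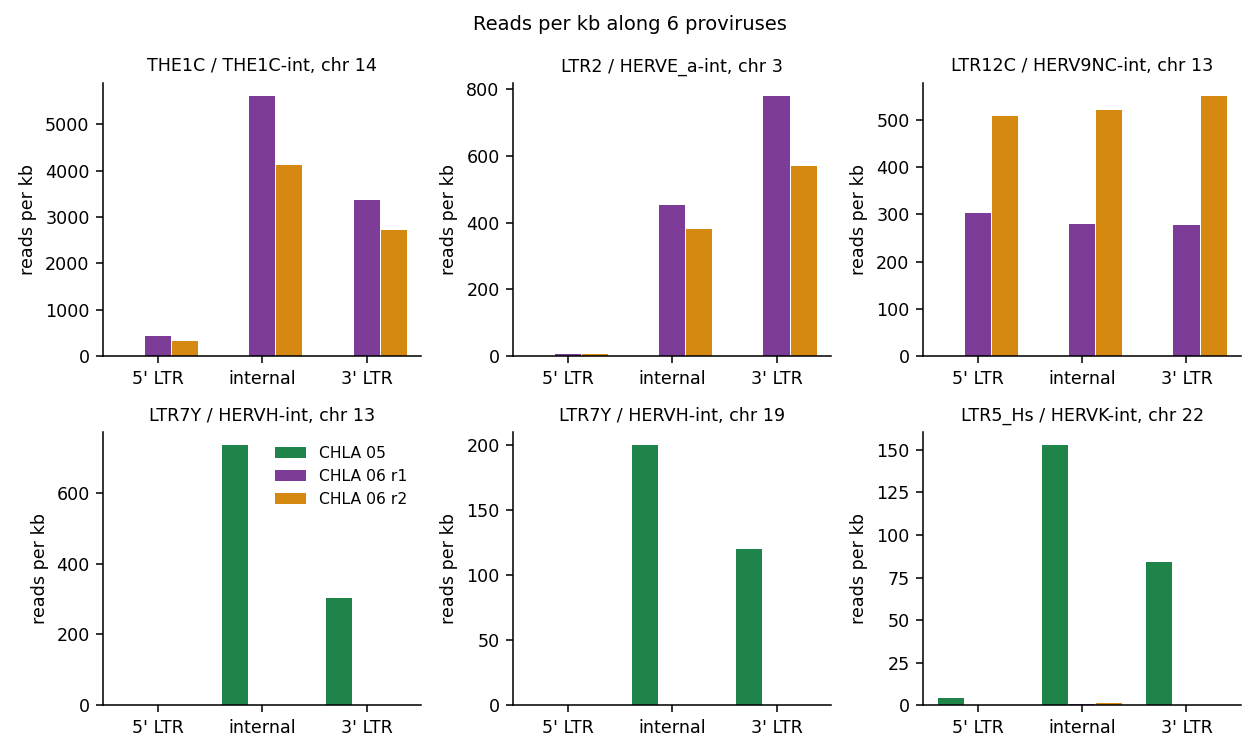
Reads per kb on the 5′ LTR, internal part and 3′ LTR of 6 proviruses in CHLA 05 and the 2 CHLA 06 libraries, each panel with its own axis. The upper row was read in CHLA 06 and the lower row in CHLA 05, and the HERV9NC-int provirus has about the same level on its 3 parts.

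Single elements differed far more often than families. Of 7685 elements with 20 or more reads in a library, 2423 (31.5%) were 2-fold or more higher in both CHLA 06 libraries and 1852 (24.1%) were lower. Between the technical replicates of CHLA 06, 962 (12.5%) were 2-fold or more apart. This was not counted for elements in the CHLA 04 pair. For families, 19.3% were 1.5-fold or more apart in that pair, against 1.67% in the CHLA 06 pair. CHLA 05 has 1 library, so its own technical spread is not known. The higher elements took 3.10% of LTR reads in CHLA 05, and 34.3% and 31.6% in CHLA 06. The lower elements took 26.8% in CHLA 05, and 3.16% and 3.25% in CHLA 06. The higher elements came from 373 families and the lower from 323. No read was found in CHLA 05 for 945 of the higher elements, and none in either CHLA 06 library for 514 of the lower. An element could enter through any library compared, and CHLA 06 has more libraries, each with more LTR reads than CHLA 05. Having no read was also judged in both CHLA 06 libraries but in the only CHLA 05 library. The 945 and 514, and the 31.5% and 24.1%, are therefore no even contrast between the directions.

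The highest single element of CHLA 06 was THE1C-int at chr14:68101247-68102806. It had 0 reads in CHLA 05 and 8754 and 6421 in CHLA 06, which is 2693-fold and 1841-fold higher with 3 counts as the floor of CHLA 05. The lower limits of the counting intervals were 2190 and 1497. It lies in an intron of RAD51B, a gene of homologous recombination repair, on the strand opposite to the gene. RAD51B was at 9.63 TPM in CHLA 05 and at 43.2 and 39.4 TPM in CHLA 06. Its LTR at chr14:68100874-68101246 (0 against 1260 and 1013 reads) and a THE1A element at chr14:68098409-68098766 (1 against 1043 and 880 reads) were also among the 10 largest differences. Within RAD51B, 15 such elements had 8 reads in CHLA 05 and 11995 and 9091 in CHLA 06. Chromosome 14 as a whole was at a ratio of 1.75, and at 0.966 without this locus.

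HERVE_a-int at chr3:157579687-157587547 had 0 reads in CHLA 05 and 3567 and 3004 in CHLA 06, on the minus strand of an intron of the plus-strand gene PQLC2L. That gene was listed at 0 TPM in CHLA 05 and at 82.5 and 78.0 TPM in CHLA 06. In GENCODE v44 an unnamed long noncoding RNA on the minus strand has an exon there. HERV9NC-int at chr13:23525258-23531378 had 0 against 1708 and 3192 reads. It lies outside the genes of the deposited transcripts, and in an exon of an unnamed long noncoding RNA of GENCODE v44. Next came LTR1E at chr19:46119705-46120345 in an exon of IGFL3, with 3 against 1978 and 1251 reads. IGFL3 was listed at 0 TPM in CHLA 05 and at 413 and 254 TPM in CHLA 06. MLT1E at chr3:157259707-157260275, in an exon of VEPH1, had 0 against 850 and 901 reads. VEPH1 was at 0.976 TPM in CHLA 05, and at 489 and 469 TPM in CHLA 06.

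The named elements that were lower in CHLA 06 often lay in untranslated exons of GENCODE v44. MLT1H2 at chr1:166917730-166918098, in ILDR2, had 1532 reads in CHLA 05 and 1 and 3 in CHLA 06. MLT1J at chr3:58564063-58564431, in FAM107A, had 1438 against 2 and 8 reads. ILDR2 was at 334 TPM in CHLA 05 and at 0.0871 and 0.624 TPM in CHLA 06, and FAM107A at 539, 0.977 and 1.34 TPM. LTR85c at chr15:80198021-80198486, in LINC01314 (CTXND1 in GENCODE v44), had 567 against 1 and 0 reads. HUERS-P3-int at chr11:17370374-17376380, in NCR3LG1, a ligand of natural killer cell receptors, had the second highest share in CHLA 05 with 1938 against 1000 and 1233 reads. Its ratios were 0.476 and 0.547, on either side of the 2-fold limit.

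Other highly read elements were at similar levels in the lines. HERV3-int in ZNF117 and ERV3-1 on chromosome 7 had 1306 reads in CHLA 05 and 1494 and 1408 in CHLA 06. Its ratios were 1.06 and 0.927. MamGyp-int in PNMA1 had 1016 against 1585 and 1392 reads, and HERVK22-int in ZNF638 had 925 against 709 and 708. All 3 elements lay in exons and stayed within 2-fold in both CHLA 06 libraries.

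**Figure D5:**
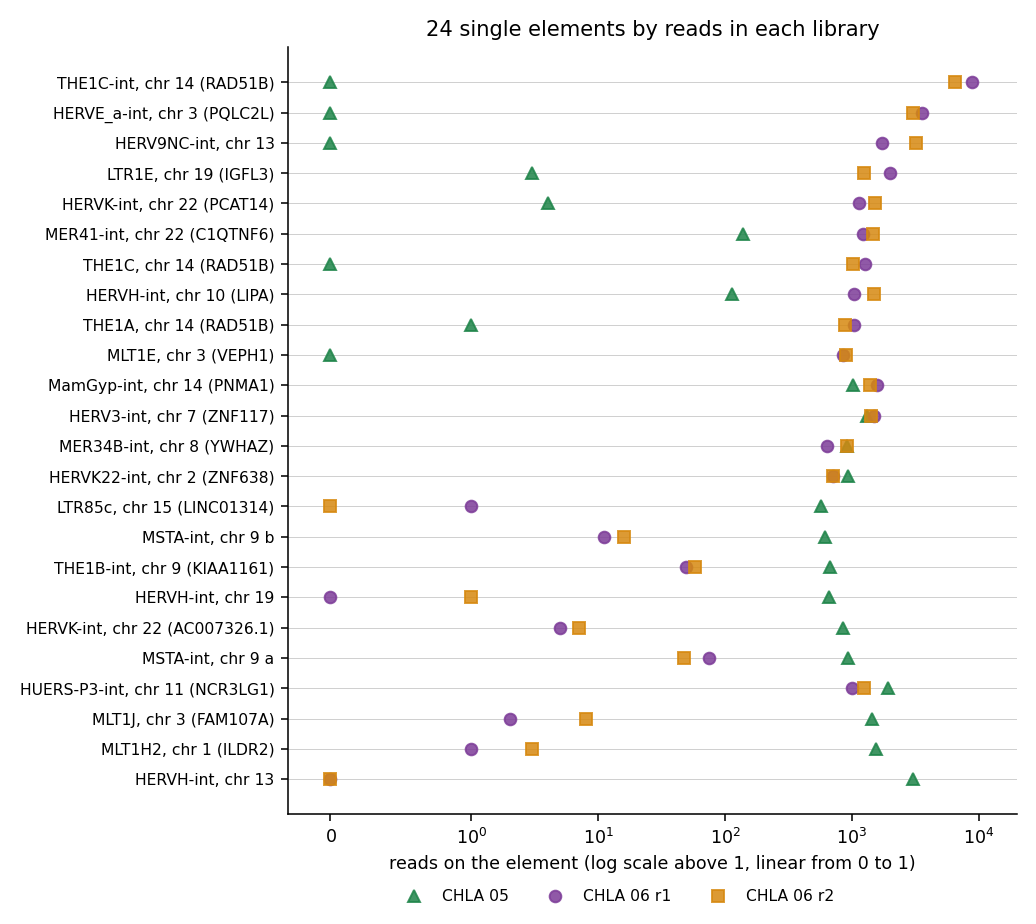
Reads on the 24 named single elements in CHLA 05 (triangles) and the 2 CHLA 06 libraries (circles and squares), on a scale that is linear from 0 to 1 and logarithmic above. The upper 10 elements were read mostly in CHLA 06, the next 4 in both lines, and the lower 10 mostly in CHLA 05. HUERS-P3-int, among the lower 10, differs least.

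Host genes and elements mostly pointed the same way. Of 15488 genes at 1 TPM or more in a library, 12.8% were 2-fold or more higher in both CHLA 06 libraries and 20.4% lower, with 0.1 TPM added. Among 166 higher elements in exons of 1 such gene, the host gene was higher for 130 (78.3%) and lower for 0. Among 100 lower elements in exons, it was lower for 73 (73.0%) and higher for 0. In introns the host gene was higher for 963 of 1254 higher elements (76.8%) and lower for 929 of 1035 lower elements (89.8%). Elements lay on the strand of the gene in 96.0% to 98.2% of the called elements in exons, and in 89.7% of the higher and 96.7% of the lower elements in introns. For elements on neither side of the limit these shares were 98.8% in exons and 96.5% in introns. Elements of a gene share its transcript, so these counts are a description. The opposite case was also seen. MLT1J2-int at chr3:115986000-115987121 had 0 reads in CHLA 05 and 187 and 141 in CHLA 06, while LSAMP, whose intron holds it on the other strand, was at 30.9 TPM in CHLA 05 and at 0.0703 and 0.0620 TPM in CHLA 06. Which reads came from elements and which from host transcripts was not tested.

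The place of reads in the genome was alike. Elements in exons took 16.1% of LTR reads in CHLA 05, and 16.3% and 16.4% in CHLA 06. Elements in introns took 57.4%, against 60.4% and 58.3%, and elements outside genes 26.5%, against 23.3% and 25.2%. Internal parts took 25.9%, against 24.3% and 24.3%. Of 97 internal families 22 were past the 1.5-fold limit, and of 322 LTR families 56. By chromosome, shares were highest relative to CHLA 05 on chromosomes 14 (1.75), 10 (1.56) and 18 (1.51), and lowest on chromosomes 9 (0.594) and 17 (0.730). Copy number changes of the lines were not tested.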

How the data were processed

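Total RNA of AT/RT cell lines was sequenced as paired reads in stranded libraries. The authors demultiplexed reads with CASAVA 1.8.2, checked them with FastQC, trimmed them with Trimmomatic and used CLCbio Genomics Workbench (default settings of its RNA-Seq tool) to map them to GRCh38. Whether counting used the strand is not given in the sources used here. The deposited values are TPM per RepeatMasker LTR element, scaled by the authors over LTR elements alone and rounded to 2 decimals, and TPM per Ensembl transcript from a separate mapping. TPM multiplied by element length is proportional to reads, and at least 99.98% of values above 0 fell within rounding of whole multiples of the step that 1 read adds. Reads were recovered from these steps.

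Shares of all LTR reads were summed by family. Intervals at the 95% level are exact (Clopper-Pearson for shares, conditional binomial for ratios) and cover counting error only. A 0 was replaced by a floor of 3 counts in ratios of elements. No test was made between cell lines, each with 1 biological sample. Named were the 12 highest and 12 lowest family ratios among families of 100 or more reads, the 10 families of highest share, HML-2 families, the 10 elements of highest share in each line and the 10 largest differences each way, outside chromosome Y. Members and lists were chosen with earlier results of these data known. Elements were placed by exons of the deposited transcripts, with GENCODE v44 and the GRCh38 genome added. Python 3.11.15, pandas 2.3.3, scipy 1.17.1, pysam 0.24.0 and edlib 1.3.9.post1 were used. Alternatives were other size, read and fold limits, scalings, shares of TPM, added reads, leaving out elements and leaving out each CHLA 06 replicate. Some items are not reported here.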

Additional observations from a re-analysis of the deposited data

Results flagged for a closer look

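HERVE_a-int fell outside the families compared because it has 195 elements, and it is given here because its reads differed by 2-fold or more among the 6 smaller families with 500 or more reads in a library. It took 0.0981% of LTR reads in CHLA 05 (406 reads) and a mean of 0.772% ± 0.119 (SD, n = 2 technical replicates) in CHLA 06 (3837 and 3310 reads), a ratio of 7.87. The element on chromosome 3 described above held 3567 and 3004 of the CHLA 06 reads. The other 5 of these smaller families were within 2-fold.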

How the results depend on the processing

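No paired analysis was possible because CHLA 05 has 1 library and shares no second replicate number with CHLA 06. The families counted as higher and lower (42 and 36 of 419) depended on the limits and on the number tested. Among 535 families with 50 or more elements 60 were higher and 57 lower. Among 258 families with 500 or more elements the counts were 22 and 17. At 2-fold they were 17 and 14, and at the lowest fold limit tried 93 and 83, each of 419. Without the top element of each family they were 14 and 11 of 418. Without elements in genes 67 were higher and 52 lower of 388. Reads scaled to transcripts moved the median family by -0.08 and -0.11 (log2) in the CHLA 06 libraries and gave 37 higher and 47 lower. Leaving out a CHLA 06 replicate gave 54 to 58 higher and 47 to 49 lower families, 4 groups, 2664 to 2674 higher and 2077 to 2126 lower elements. Groups 1.5-fold apart (4) were 1 without their top elements and 0 by share of TPM. Elements (2423 higher, 1852 lower of 7685) were 4170 and 3865 with 10 or more reads, and 329 and 195 with 100 or more. The number of elements tested changes with these read limits as well and is not given here. These counts therefore do not show whether the share of elements past the limit rose or fell.

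Among named families past the 1.5-fold limit the direction turned in 9 cases. By share of TPM the log2 ratio of HERVK14-int was 0.044. Without the top element it was -0.19 for HERV9NC-int and 0.85 for HUERS-P2-int. Without elements in genes it was -0.38 for MLT1E, -0.019 for LTR2C, -0.65 for MLT1J2-int, 0.77 for LTR85c, 1.52 for HUERS-P2-int and 0.042 for LTR81B. Within the limit, HERVK-int went from 0.43 to -0.29 without its top element, MER21C to 0.52 and MLT1C to 0.28 without elements in genes, and MLT1A0, MLT1B, MLT1D and LTR5A, near 0, changed sign under some settings. Changes after leaving out elements follow from the elements removed, and for HERVK14-int and the other settings the cause was not tested. Added after seeing the data, MSTA-int without its 6 regions was at -0.81 and HERVH-int without its chromosome 13 region at -0.26 (log2). Of the values of named families under these other settings, 471 moved by less than the spread of the CHLA 06 replicates, 149 by more, and the 9 above turned. Families near 20 reads and elements at 0 to 3 reads are limited by depth.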

Other observations

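The libraries of the other cell lines held reads on many of the same elements. Of the 2423 elements higher in CHLA 06 than in CHLA 05, CHLA 02 had a read on 2415, and the CHLA 04 libraries had a read on 1322 and 1432. These elements took 15.8% of LTR reads in CHLA 02, 4.58% and 4.76% in CHLA 04, and 3.10% in CHLA 05. Of the 1852 lower elements, CHLA 02 had a read on 1632, and CHLA 04 on 1624 and 1679. These took 11.0% of LTR reads in CHLA 02, 18.5% and 17.3% in CHLA 04, and 3.16% and 3.25% in CHLA 06. CHLA 02 and CHLA 04 thus both lay between CHLA 05 and CHLA 06 on both sets. The sets were chosen by the difference between CHLA 05 and CHLA 06, so a place between them follows in part from that choice. How many of all 7685 elements had a read in CHLA 02 or CHLA 04 was not counted. The counts with a read are therefore no measure of likeness to CHLA 05 or CHLA 06. CHLA 02 had 1328 reads on the THE1C-int element in RAD51B, where CHLA 04 had 0 and 1. In CHLA 02, MYC was at 79.7 TPM. The regions with MSTA-int copies differed in the other lines. The element at chr9:64449663-64451241 had 829 reads in CHLA 02, and 1007 and 1085 in CHLA 04, against 74 and 47 in CHLA 06. On chromosome 22 the LTR elements of the region had 1968 reads in CHLA 05, 26 in CHLA 02, 51 and 54 in CHLA 04, and 26 and 46 in CHLA 06.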
